A study of Homo sapiens with 12 samples.

Results

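DNA replication in HGC-27 cells was followed through 45 genes of the replication origin, the fork, the polymerases, deoxynucleotide synthesis and the entry into S phase. The genes were listed by name, matched to rows by Ensembl identifier and kept at a mean of at least 1 FPKM, and all 45 of the 45 listed genes met that floor among 20345 rows. FPKM counts fragments relative to the length of the transcript and to the mapped fragments of the library, so it is a level per length. HGC-27 is an established human gastric cancer line, sequenced here as bulk RNA in 12 libraries. The groups were WT untreated (replicates 1, 2 and 3), WT with GLUP peptide (14, 15 and 16), TEAD4KO untreated (1, 2 and 3) and TEAD4KO with GLUP peptide (14, 15 and 16), each with n = 3. GLUP is a synthetic peptide designed to bind and cluster TEAD4, the DNA-binding partner of the YAP and TAZ co-activators, and the comparison between genotypes asked whether its effects need TEAD4. Whether the knockout cells are a single clone is not given in the labels, and whether replicates were separate cultures is not given there either, so p-values measure only the spread between these libraries.

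Replication is prepared in G1, when ORC, CDC6 and CDT1 load the MCM2-7 helicase on origins. In S phase CDC45 and the GINS complex join MCM2-7 to form the active helicase, RPA coats the exposed single strands, and polymerase alpha with primase lays down primers. The clamp loader RFC places the PCNA ring at these primers, polymerases delta and epsilon extend them, and FEN1 and LIG1 process and join Okazaki fragments. Ribonucleotide reductase, thymidylate synthase and thymidine kinase supply the deoxynucleotides. Many of these genes are transcribed under E2F factors once cyclin E-CDK2 activity climbs, and their RNA is a common readout of proliferating tumour cells.

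Promoter letters are shown first for CDT1, TYMS and GINS2, which bear an E2F-type site and differed between the genotype labels in the results that follow. MCM7 met both conditions too, and its letters are left out because annotated UTR bases lie in its window. Of the 45 members, 38 had an entry among RefSeq promoters of GRCh38.p14. The search covered 250 bases upstream of each start on both strands for TTTCCCGC, TTTCGCGC, TTTGCCGC and TTTGGCGC, letters that do not contain the other motifs searched. At least 1 of these was found in 14 of 38 members (36.842%), against 2.787% of 27305 promoters. The members with a match were MCM3, MCM6, MCM7, CDT1, GINS2, PCNA, RFC3, POLA1, POLA2, POLE, LIG1, TYMS, E2F1 and CDC25A, and MCM6 had 4 matches in overlapping pairs. The CCAAT box (CCAAT) was found in 57.895% of members and 33.038% of promoters. The core of the M-CAT element bound by TEAD factors (CATTCC) was found in 10.526% of members, namely ORC6, GINS1, POLA2 and PRIM1, and in 11.895% of promoters. The CHR element (TTTGAA or TTCGAA) was found in 5.263% of members and 14.587% of promoters. A match of letters is a description and does not show that a factor binds there. The last 120 bases before the start of CDT1 (chr16:88803669-88803788, plus strand), TYMS (chr18:657533-657652, plus strand) and GINS2 (chr16:85688955-85689074, minus strand) are given 5′ to 3′ on GRCh38.p14, with the E2F-type site, here the reverse complement of TTTCCCGC, in capitals.
CDT1: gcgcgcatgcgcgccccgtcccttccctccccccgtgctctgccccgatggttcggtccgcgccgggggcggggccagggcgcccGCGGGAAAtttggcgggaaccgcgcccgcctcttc
TYMS: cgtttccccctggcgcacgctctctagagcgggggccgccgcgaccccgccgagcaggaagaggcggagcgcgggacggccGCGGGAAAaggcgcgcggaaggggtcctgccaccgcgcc
GINS2: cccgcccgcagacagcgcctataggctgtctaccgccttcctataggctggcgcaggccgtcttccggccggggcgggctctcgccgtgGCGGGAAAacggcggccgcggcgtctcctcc
The site begins at -35 from the start in CDT1, at -39 in TYMS and at -31 in GINS2. Exon bases of the antisense gene TYMSOS lie in the TYMS stretch. The GINS2 letters match GRCh37 at 85722561 to 85722680, inside GINS2 as annotated there, so they precede the RefSeq start and not the outermost annotated start of the gene. No such site was matched upstream of TK1, RFC2, POLD1 or RFC1, which also differed between the labels.

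TEAD4 RNA was not lowered in the libraries labelled TEAD4KO. It measured 25.1 ± 0.709 FPKM in untreated WT, 23.4 ± 0.468 in WT with GLUP, 28.3 ± 1.55 in untreated TEAD4KO and 27.7 ± 1.68 in TEAD4KO with GLUP (SD, n = 3). Over both treatments it was higher in the libraries labelled TEAD4KO by 0.20 on the log2(FPKM + 1) scale (SE 0.044, adjusted p = 0.00752 by limma), and after the length and GC correction described below the difference was 0.06 with an adjusted p of 0.340. A level of the whole transcript does not show whether the protein was lost, so the value goes against the label without settling it, and every genotype difference below is one between library labels. The defining markers of gastric mucosa TFF1, TFF2 and GKN1 were at 0 FPKM in every library, and the epithelial keratin KRT8 was between 3.78 and 9.13 FPKM with KRT18 and EPCAM under 0.3 FPKM. Of the other epithelial markers, CDH1 was between 2.04 and 3.68 FPKM and KRT19 was at most 0.0459 FPKM. Among mesenchymal markers VIM was between 1238 and 1704 FPKM and ZEB1 between 15.9 and 23.3 FPKM, but FN1 was between 3.85 and 9.15 FPKM and CDH2 under 0.15 FPKM. Among fibroblast markers COL1A1 (155 to 304 FPKM) and DCN (55.1 to 77.6 FPKM) were high, COL1A2 (4.93 to 9.80 FPKM) and PDGFRB (0.820 to 1.27 FPKM) were low, and the blood markers CD3E and HBB were at 0. On the leading principal component of 11225 rows, which held 39.7% of the variance, the 6 WT libraries lay between -16.2 and -3.71. TEAD4KO untreated replicate 1 (-0.962) and TEAD4KO GLUP replicate 16 (-5.26) lay near or among them, apart from the other 4 libraries labelled TEAD4KO (9.91 to 19.8). The genotype calls below are therefore also given without these 2 libraries, an alternative chosen after the data were seen.

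The replication genes were well expressed in all 12 libraries. They made up 0.392 to 0.407% of the FPKM total in WT libraries and 0.385 to 0.398% in libraries labelled TEAD4KO. Mean levels over the 12 libraries ran from 3.71 FPKM (CCNE2) to 153 FPKM (MCM7). The median coefficient of variation between replicates of a group was 5.29% for the members, against 6.41% for the 8182 tested rows of at least 5 FPKM. In bulk RNA a larger share of cells in S phase and more RNA per S-phase cell cannot be told apart.

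**Figure D1:**
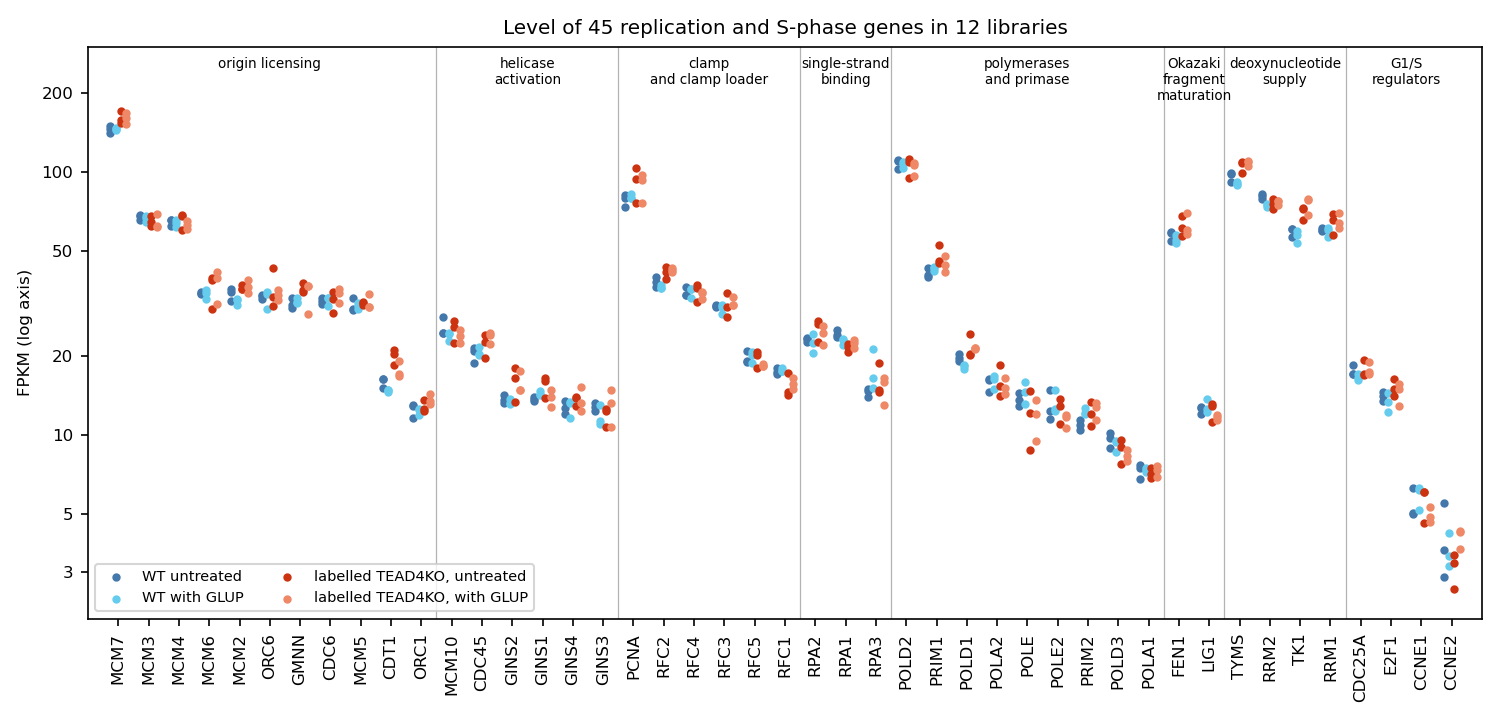
FPKM of the 45 members on a log axis, grouped by role and ordered by mean level within a role, with 1 point per library and 1 colour per group. MCM7, POLD2, TYMS and PCNA have the highest means, CCNE1 and CCNE2 the lowest, and the 4 groups lie close together for most genes.

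Among the origin licensing genes, MCM7, a subunit of the replicative helicase, had the highest level. It measured 146.4, 150.02 and 140.6 FPKM in untreated WT, 146.4, 145.2 and 147.1 in WT with GLUP, 158.9, 171.0 and 153.5 in untreated TEAD4KO, and 167.7, 153.1 and 160.7 in TEAD4KO with GLUP. The 6 libraries labelled TEAD4KO all lay above the 6 WT libraries. The other helicase subunits followed with means of 65.96 FPKM (MCM3), 64.4 (MCM4), 35.7 (MCM6), 35.0 (MCM2) and 31.4 (MCM5), so that RNA for 1 ring differed by 4.88-fold between its highest and lowest subunit. MCM7 did not overlap with MCM3, and MCM4 did not overlap with MCM6, whereas the ranges of MCM3 and MCM4 and of MCM6, MCM2 and MCM5 overlapped. The origin binding subunits ORC6 and ORC1 had means of 34.2 and 12.8 FPKM, and the loader CDC6 had 32.8 FPKM. GMNN, the inhibitor of CDT1, was above CDT1 in 12 of 12 libraries, with means of 33.6 and 17.1 FPKM.

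Genes of helicase activation were lower. MCM10, which helps to activate the loaded helicase, was the highest of them in untreated WT with 28.1, 24.5 and 24.5 FPKM. It measured 24.3, 24.5 and 22.7 FPKM in WT with GLUP, 22.5, 25.9 and 27.1 in untreated TEAD4KO, and 25.2, 22.4 and 23.8 in TEAD4KO with GLUP, with all groups overlapping except WT with GLUP, which did not exceed any untreated WT library. CDC45 had a mean of 21.7 FPKM, and the 4 GINS subunits lay close together at 14.7 (GINS2), 14.4 (GINS1), 13.1 (GINS4) and 12.3 FPKM (GINS3), with overlap between every neighbouring pair.

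PCNA, the sliding clamp, measured 80.1, 82.2 and 74.1 FPKM in untreated WT, 80.2, 79.9 and 82.5 in WT with GLUP, 76.4, 103.7 and 94.1 in untreated TEAD4KO, and 93.7, 97.9 and 76.2 in TEAD4KO with GLUP. The low libraries among those labelled TEAD4KO were untreated replicate 1 and GLUP replicate 16, and the other 4 lay above every WT library. The clamp loader subunits had means of 39.7 (RFC2), 34.9 (RFC4), 31.1 (RFC3), 19.4 (RFC5) and 16.5 FPKM (RFC1), an order found in 11 of 12 libraries. RPA1, the large subunit of the single-strand binding protein, had the highest level of its complex in untreated WT with 25.1, 23.6 and 24.0 FPKM. It measured 23.1, 23.2 and 22.0 FPKM in WT with GLUP, 22.1, 21.7 and 20.8 in untreated TEAD4KO, and 23.0, 21.4 and 22.5 in TEAD4KO with GLUP. RPA2 and RPA3 had means of 23.7 and 15.8 FPKM over all libraries.

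Among polymerase genes, POLD2, an accessory subunit of polymerase delta, measured 111.2, 110.7 and 103.4 FPKM in untreated WT and 107.4, 109.1 and 103.9 with GLUP. Libraries labelled TEAD4KO had 112.7, 109.3 and 94.7 FPKM untreated and 108.8, 97.1 and 106.2 with GLUP, so that all 4 groups overlapped. The catalytic subunit POLD1 (mean 20.2 FPKM) and the accessory subunit POLD3 (8.98 FPKM) were lower in 12 of 12 libraries, and the 3 ranges did not overlap, with an 11.8-fold span of means. In polymerase alpha-primase the order was PRIM1 (44.2 FPKM), POLA2 (15.7), PRIM2 (11.9) and POLA1 (7.28) in 12 of 12 libraries. POLE and POLE2 of polymerase epsilon had nearly equal means of 12.9 and 12.5 FPKM. PRIM1 shares 139 exon bases on the same strand with NACA, an abundant gene, so its level is uncertain. FEN1, the flap nuclease of Okazaki fragments, measured 59.4, 58.7 and 54.9 FPKM in untreated WT, 55.5, 57.5 and 53.8 in WT with GLUP, 57.4, 68.4 and 61.6 in untreated TEAD4KO, and 69.8, 60.1 and 58.0 in TEAD4KO with GLUP. Its partner in this step, the ligase LIG1, had a mean of 12.3 FPKM.

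The deoxynucleotide genes were all abundant, with means of 100.4 (TYMS), 77.2 (RRM2), 65.6 (TK1) and 62.5 FPKM (RRM1). RRM2 exceeded RRM1, the other subunit of ribonucleotide reductase, in 12 of 12 libraries, and the ratio was 1.22 to 1.37 in WT and 1.11 to 1.26 in libraries labelled TEAD4KO. Of the G1/S regulators, CDC25A, the phosphatase that activates CDK2, measured 17.1, 17.1 and 18.5 FPKM in untreated WT, 16.5, 17.0 and 16.1 in WT with GLUP, 17.0, 19.3 and 16.9 in untreated TEAD4KO, and 18.9, 17.1 and 17.4 in TEAD4KO with GLUP. The transcription factor E2F1 had a mean of 14.2 FPKM, and the cyclins CCNE1 and CCNE2 had 5.46 and 3.71 FPKM. CCNE2 shares 1629 exon bases with INTS8 on the opposite strand, which averaged 15.7 FPKM, so the level of CCNE2 is uncertain.

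The question of what GLUP changed was addressed first in WT cells. None of the 45 members passed an adjusted p of 0.05 in the limma fit, in which p-values were adjusted over all 11225 tested rows, and 0 members had an unadjusted p under 0.05. Across all rows 1 of 11225 was called (0.00891%). Differences of the members ran from -0.11 (GINS3) to 0.25 (RPA3) on the log2(FPKM + 1) scale, with 18 above 0 and 27 below. In the libraries labelled TEAD4KO, 0 members were called and 1 (CDT1) had an unadjusted p under 0.05, against 0.0445% of all rows called, and differences ran from -0.17 (CDT1) to 0.31 (CCNE2).

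Over both genotypes, GLUP again left 0 of 45 members called, 1 of them (CDT1) with an unadjusted p under 0.05, against 29 of 11225 rows called (0.258%). No member had 6 GLUP libraries wholly above or below the 6 untreated libraries, as 0.57% of all rows did. The differences lay between -0.14 for CDT1 (95% interval -0.25 to -0.03, adjusted p = 0.531) and 0.11 for CCNE2 (-0.14 to 0.36, adjusted p = 0.911), with a median of -0.02. For 44 of 45 members the 95% interval of the difference excluded a change of 1.25-fold in either direction, and for all 45 it excluded 1.5-fold. MCM7 (0.00, interval -0.09 to 0.09) and PCNA (0.00, -0.16 to 0.16) were among them. The exception at 1.25-fold was CCNE2, the member with the lowest level, which shares exon bases with INTS8. These intervals are for the mean of the GLUP differences in the 2 genotypes, in which opposite differences cancel. Within WT alone 39 of 45 intervals excluded 1.25-fold and 45 excluded 1.5-fold. Within the libraries labelled TEAD4KO 38 of 45 excluded 1.25-fold and 44 excluded 1.5-fold. An adjusted p above the threshold does not show that GLUP had no effect, and the intervals give the sizes that remain possible. GLUP differences in WT and in the libraries labelled TEAD4KO, which share no library, had the same sign in 17 of 45 members (37.8%) and in 58.0% of all tested rows.

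The interaction, which tests whether GLUP acted differently in the 2 genotypes, gave 0 called members, 0 with an unadjusted p under 0.05, and 0.00891% of all rows called. Its values ran from -0.32 (RPA3, 95% interval -0.71 to 0.06) to 0.40 (CCNE2, -0.10 to 0.89), and 43 of 45 intervals excluded a 1.5-fold difference.

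**Figure D2:**
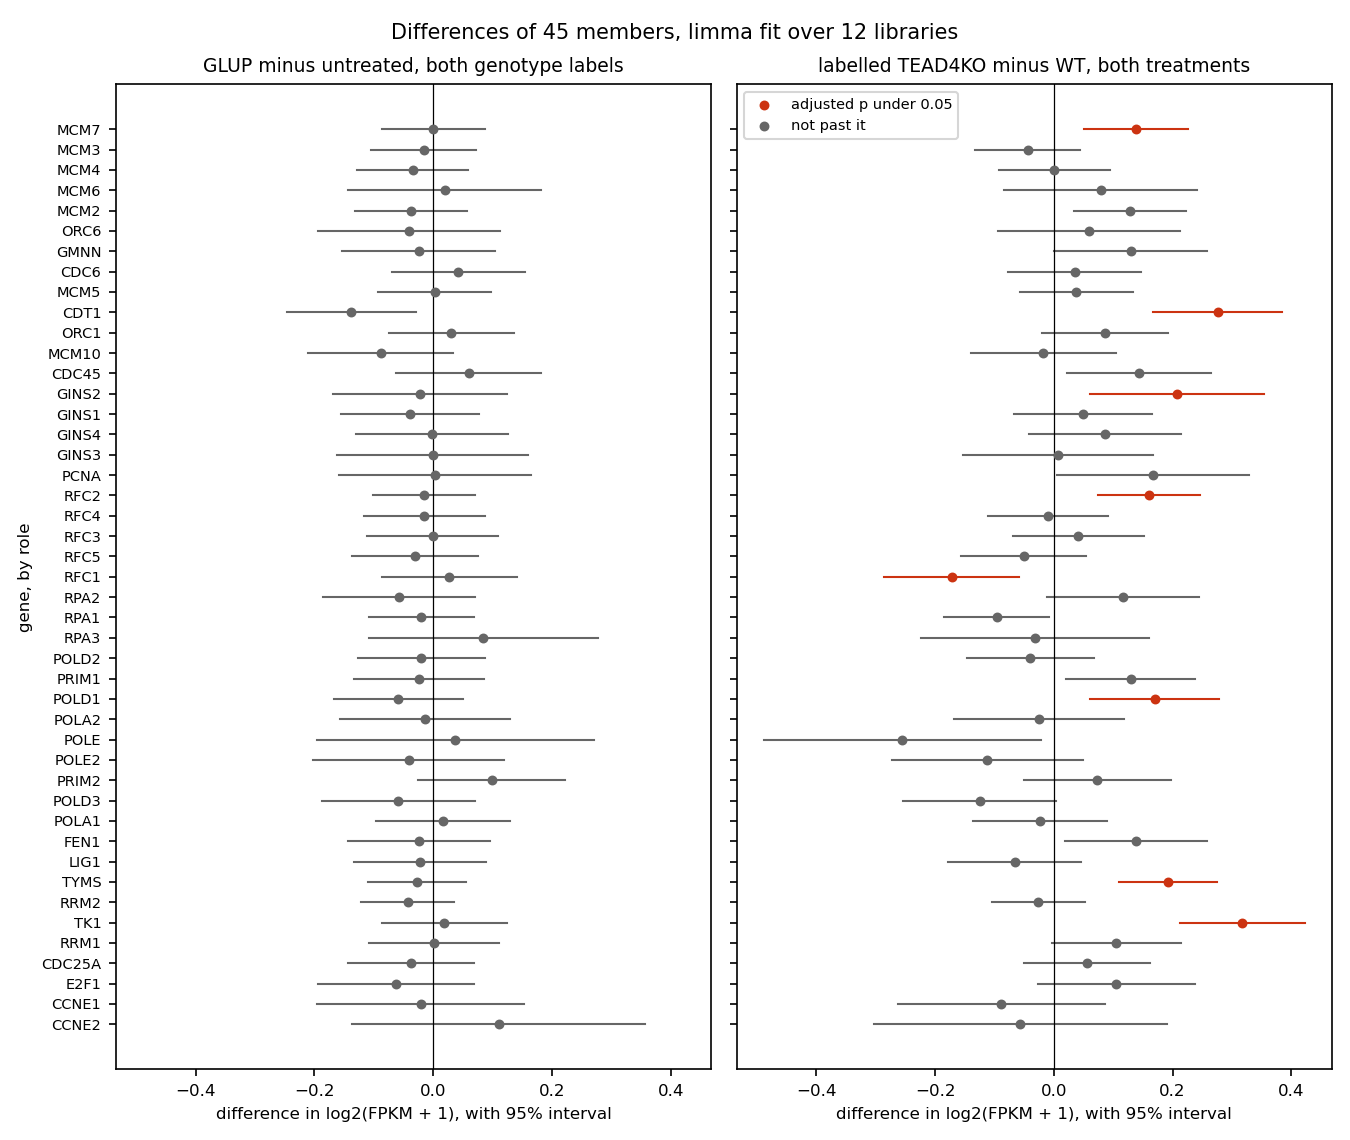
Difference of each of the 45 members on the log2(FPKM + 1) scale with its 95% interval from the limma fit, for GLUP over both genotype labels (left) and for libraries labelled TEAD4KO minus WT over both treatments (right). No point on the left is past the adjusted p of 0.05, and 8 on the right are, with 7 higher and RFC1 lower.

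Differences between the genotype labels were larger. Over both treatments, 8 of 45 members (17.8%) were called, with 7 higher and 1 lower in libraries labelled TEAD4KO, while 20% of all tested rows were called (14.4% higher and 5.67% lower). The members' share is thus near that of the whole table. The higher genes were TK1, CDT1, TYMS, RFC2, MCM7, POLD1 and GINS2, and RFC1 was lower. Of the members, 16 had an unadjusted p under 0.05, and the median difference was 0.05, against 0.01 over all tested rows. Under quantile normalization the members' median was -0.0029 and the calls were 3 higher (CDT1, TYMS and TK1) and 4 lower (MCM3, RFC1, RPA1 and RRM2), so the balance of directions in the set depends on the scaling, as it does over all rows (71.7% of calls higher as deposited and 50.2% after quantile normalization). In 4 members, CDT1, MCM7, TYMS and TK1, all 6 libraries labelled TEAD4KO lay above all 6 WT libraries, as the groups did not overlap in 9.39% of all rows. The FPKM total itself was 375361 to 384477 in WT libraries and 397321 to 423757 in libraries labelled TEAD4KO. This separation is therefore one of FPKM as deposited, not divided by that total. With median-ratio scaling, CDT1, TYMS and TK1 stayed called over both treatments, and MCM7 did not.

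**Figure D3:**
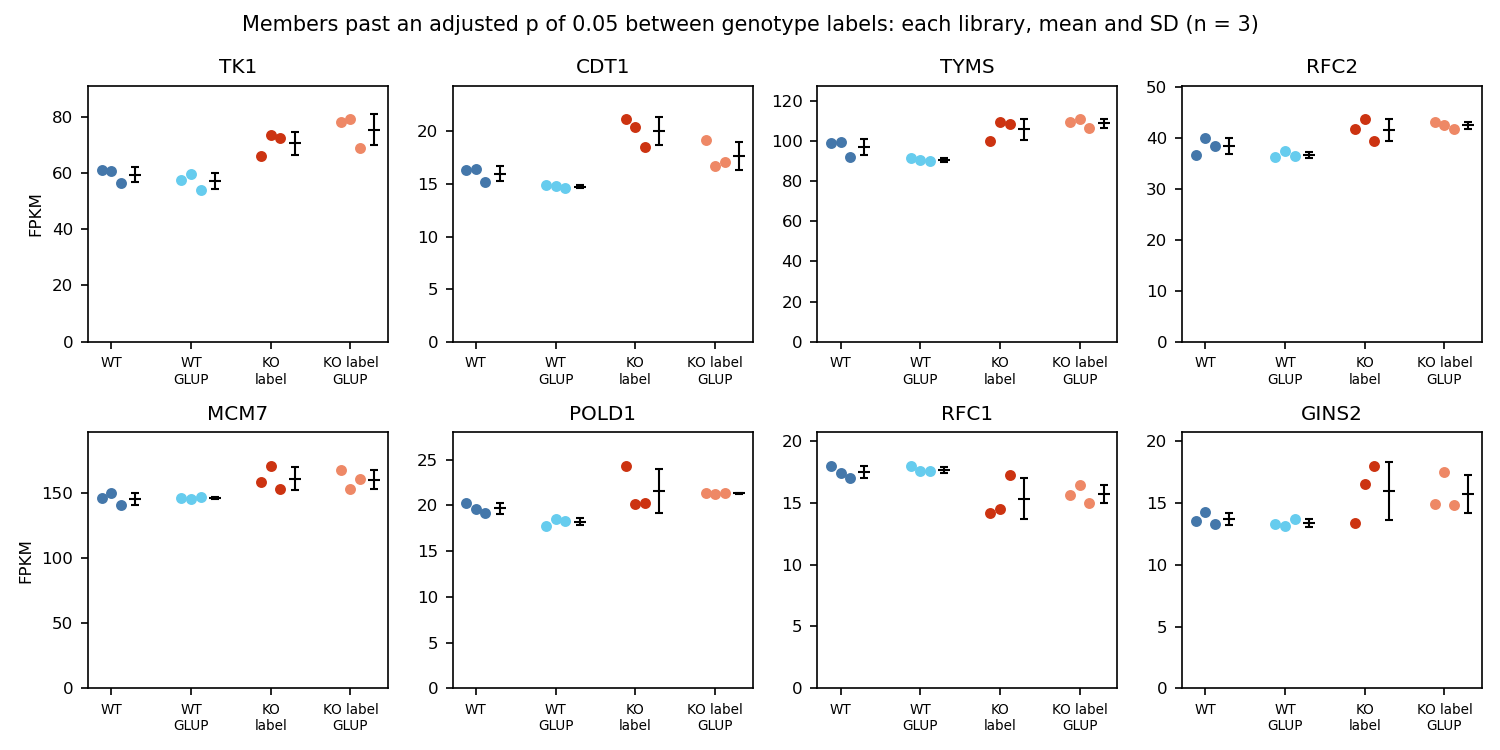
FPKM of the 8 members called between the genotype labels over both treatments, 1 point per library, with the group mean and SD (n = 3) as a black bar beside the points. The axes start at 0, and TK1, CDT1, TYMS and MCM7 are the genes in which no library labelled TEAD4KO falls to the level of any WT library.

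TK1, thymidine kinase of the salvage route to dTTP (chromosome 17, 76170172 to 76183314, minus strand, GRCh37), showed the greatest difference of the 8. It measured 61.0, 60.7 and 56.5 FPKM in untreated WT and 57.5, 59.8 and 54.1 with GLUP. Libraries labelled TEAD4KO had 65.9, 73.3 and 72.4 FPKM untreated and 78.1, 79.0 and 68.9 with GLUP. The genotype difference was 0.32 (SE 0.049, adjusted p = 0.000786), a fold of 1.25. TYMS, thymidylate synthase of the de novo route (chromosome 18, 657653 to 673578, plus strand, GRCh37), measured 98.9, 99.4 and 92.1 FPKM in untreated WT and 91.6, 90.5 and 89.7 with GLUP. In libraries labelled TEAD4KO it had 99.8, 109.1 and 108.1 FPKM untreated and 109.3, 110.6 and 106.1 with GLUP, which is higher by 0.19 (SE 0.038, adjusted p = 0.0041). TYMS shares 967 exon bases with ENOSF1 on the opposite strand, and the counting is not stated to use strand. ENOSF1 itself differed by -0.19 (adjusted p = 0.385) between the labels, in the direction opposite to TYMS.

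CDT1, which loads the helicase and is removed once S phase begins (chromosome 16, 88870197 to 88875666, plus strand, GRCh37), measured 16.4, 16.4 and 15.1 FPKM in untreated WT and 14.9, 14.8 and 14.6 with GLUP. Libraries labelled TEAD4KO had 21.1, 20.4 and 18.5 FPKM untreated and 19.2, 16.7 and 17.1 with GLUP. All 6 were above WT, and CDT1 was higher by 0.28 (SE 0.051, adjusted p = 0.00251). It was also the member called in untreated cells, with a difference of 0.31 (SE 0.072, adjusted p = 0.0253). With GLUP the CDT1 difference was 0.24 (adjusted p = 0.0614). Its inhibitor GMNN had a difference of 0.13 (adjusted p = 0.142). MCM7 (chromosome 7, 99689856 to 99699563, minus strand, GRCh37), whose values are given above, was higher by 0.14 (SE 0.040, adjusted p = 0.0292), the only one of the 6 ring subunits past the threshold. For MCM2 the difference was 0.13 (adjusted p = 0.0542), and for MCM4 it was 0.00 (adjusted p = 0.991). MCM7 shares 392 exon bases with AP4M1 on the opposite strand, and AP4M1 had a difference of 0.06 (adjusted p = 0.519).

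The clamp loader held both directions. RFC2, a small subunit (chromosome 7, 73645829 to 73668788, minus strand, GRCh37), measured 36.7, 39.9 and 38.3 FPKM in untreated WT, 36.2, 37.3 and 36.4 in WT with GLUP, 41.7, 43.6 and 39.3 in untreated TEAD4KO, and 43.1, 42.5 and 41.7 in TEAD4KO with GLUP. The untreated groups overlapped in replicate 3 of TEAD4KO and replicate 2 of WT, the GLUP groups did not overlap, and the difference over both was 0.16 (SE 0.040, adjusted p = 0.0138). RFC1, the large subunit (chromosome 4, 39289076 to 39367995, minus strand, GRCh37), measured 18.0, 17.4 and 17.0 FPKM in untreated WT and 18.0, 17.5 and 17.6 with GLUP. In libraries labelled TEAD4KO it measured 14.2, 14.5 and 17.3 FPKM untreated and 15.7, 16.5 and 14.99 with GLUP, and it was lower by 0.17 on the log2 scale (difference -0.17, SE 0.053, adjusted p = 0.0350). The ratio of RFC2 to RFC1 was 2.02 to 2.29 in WT and 2.28 to 3.001 in libraries labelled TEAD4KO. RFC3, RFC4 and RFC5 had differences of 0.04, -0.01 and -0.05, with adjusted p-values of 0.598, 0.903 and 0.487.

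POLD1, the catalytic subunit of polymerase delta (chromosome 19, 50887461 to 50921275, plus strand, GRCh37), measured 20.3, 19.6 and 19.1 FPKM in untreated WT and 17.8, 18.5 and 18.3 with GLUP. Libraries labelled TEAD4KO had 24.3, 20.1 and 20.3 FPKM untreated and 21.4, 21.2 and 21.4 with GLUP, and the difference was 0.17 (SE 0.050, adjusted p = 0.0314). The untreated groups overlapped and the GLUP groups did not. GINS2, a subunit of the active helicase (chromosome 16, 85709804 to 85723679, minus strand, GRCh37), measured 13.6, 14.2 and 13.3 FPKM in untreated WT and 13.3, 13.1 and 13.7 with GLUP. It had 13.4, 16.5 and 18.0 FPKM in untreated TEAD4KO and 14.9, 17.6 and 14.8 in TEAD4KO with GLUP, a difference of 0.21 (SE 0.068, adjusted p = 0.0468). Untreated TEAD4KO replicate 1 lay within the WT range of GINS2.

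By role, counts are of FPKM as deposited, in which the balance of directions depends on the scaling as given above. They are to be read against all tested rows, of which 20% were called and 5844 of 11225 had a difference above 0. The licensing genes had 10 of 11 differences above 0 (median 0.08) with 2 called, and helicase activation had 5 of 6 above 0 (median 0.07) with 1 called. The clamp and clamp loader had 3 of 6 above 0 with 1 called in each direction. Polymerases and primase had 3 of 9 above 0 (median -0.02) with 1 called, and their lowest value was that of POLE (-0.26, 95% interval -0.49 to -0.02, adjusted p = 0.113). Single-strand binding had 1 of 3 above 0 and Okazaki fragment maturation 1 of 2, with 0 called in either. The deoxynucleotide genes had 3 of 4 above 0 (median 0.15) with 2 called, and the G1/S regulators had 2 of 4 above 0 with 0 called. E2F1 had a difference of 0.11 (adjusted p = 0.238), CCNE1 of -0.09 (adjusted p = 0.463) and CCNE2 of -0.06 (adjusted p = 0.753).

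**Figure D4:**
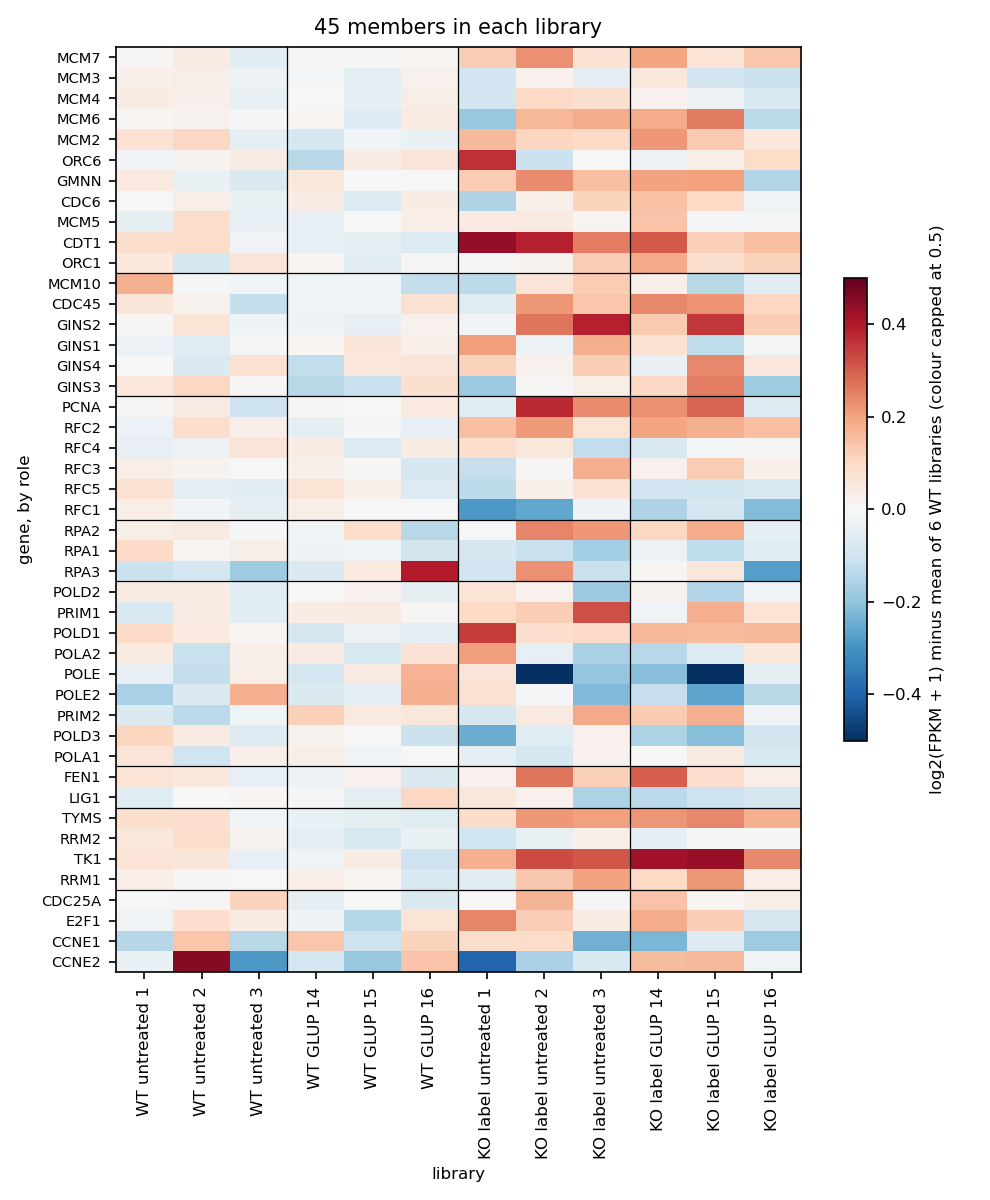
Level of each member in each library on the log2(FPKM + 1) scale minus the mean of the 6 WT libraries, in colours capped at 0.5, with genes grouped by role. TK1, CDT1 and TYMS are raised in all 6 libraries labelled TEAD4KO, while in untreated replicate 1 and GLUP replicate 16 PCNA and POLE lie within the WT range and MCM6 lies below it.

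Within each treatment fewer members passed. In untreated cells 1 of 45 members (2.22%) was called, CDT1, against 5.42% of all rows (4.92% higher and 0.499% lower). An unadjusted p under 0.05 was found for 8. With GLUP 3 of 45 (6.67%) were called, RFC2, TYMS and TK1, against 5.84% of all rows (4.91% higher and 0.935% lower). There TK1 was higher by 0.39 (SE 0.069, adjusted p = 0.00553), TYMS by 0.26 (SE 0.054, adjusted p = 0.0141) and RFC2 by 0.21 (SE 0.056, adjusted p = 0.0492). The libraries numbered 14, 15 and 16 were taken as paired across genotypes, although the numbers 14 and 15 were not told apart by their deviations. In a paired fit, blocked on these numbers, RFC2 had an adjusted p of 0.0522 and CDT1 one of 0.0476, while TK1 (0.0053) and TYMS (0.0237) stayed called. The 2 genotype comparisons share no library, and the members' differences had the same sign in 35 of 45 (77.8%), against 76.5% of all tested rows.

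Leaving out untreated replicate 1 and GLUP replicate 16 of the libraries labelled TEAD4KO, which were picked because they lay nearest WT, by itself favours more calls and smaller p-values, so these values are a description. Without them, 18 of 45 members (40%) were called over both treatments, 17 higher and 1 lower, against 41.4% of all rows. The higher genes were CDT1, GMNN, MCM2, MCM6, MCM7, CDC45, GINS2, PCNA, RFC2, RPA2, PRIM1, PRIM2, POLD1, FEN1, RRM1, TYMS and TK1, and POLE was lower, while RFC1 had a difference of -0.13 and an adjusted p of 0.0577. TK1 was then higher by 0.37 (adjusted p = 4.73e-05), TYMS by 0.22 (adjusted p = 0.000472) and CDT1 by 0.27 (adjusted p = 0.00183). In untreated cells 8 members were then called against 19.9% of all rows, and with GLUP 15 were, against 27.8%.

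Transcript length moved with the genotype differences and is given beside them: 6 of the 7 higher members have transcripts shorter than the median member, and RFC1 (4870 bases) is longer. Over both treatments the difference fell with length, with a Spearman correlation across genes of -0.422 in the 45 members and -0.533 in 11077 tested rows with a known length, which share the same 12 libraries. Of the 22 members shorter than the median of 2674 bases, 16 had a difference above 0 (median 0.12), as did 12 of the 23 longer ones (median 0.00). When the trend with length and GC content was taken out of each library, the correlation in the members was 0.110 and the medians were 0.00 and 0.05. The calls over both treatments were then CDT1 (0.14, adjusted p = 0.0406) and TYMS (0.11, adjusted p = 0.0314), both higher, and POLD2 (-0.18, adjusted p = 0.00694), lower. TK1 had a corrected difference of 0.15 with an adjusted p of 0.0579, and GINS2 kept 0.21 with an adjusted p of 0.0728. MCM7 (0.11, adjusted p = 0.0806) and RFC1 (-0.12, adjusted p = 0.103) kept most of their differences, whereas those of RFC2 (0.08, adjusted p = 0.126) and POLD1 (0.06, adjusted p = 0.280) shrank more. TK1 (0.32 before the correction), CDT1 (0.28) and TYMS (0.19) also lost a larger share of their differences than MCM7 and RFC1 did. In untreated cells no member was called after the correction, and with GLUP TYMS was. In the paired fit with the same correction 0 members were called with GLUP, and CDT1, POLD2 and TK1 were called over both treatments.

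**Figure D5:**
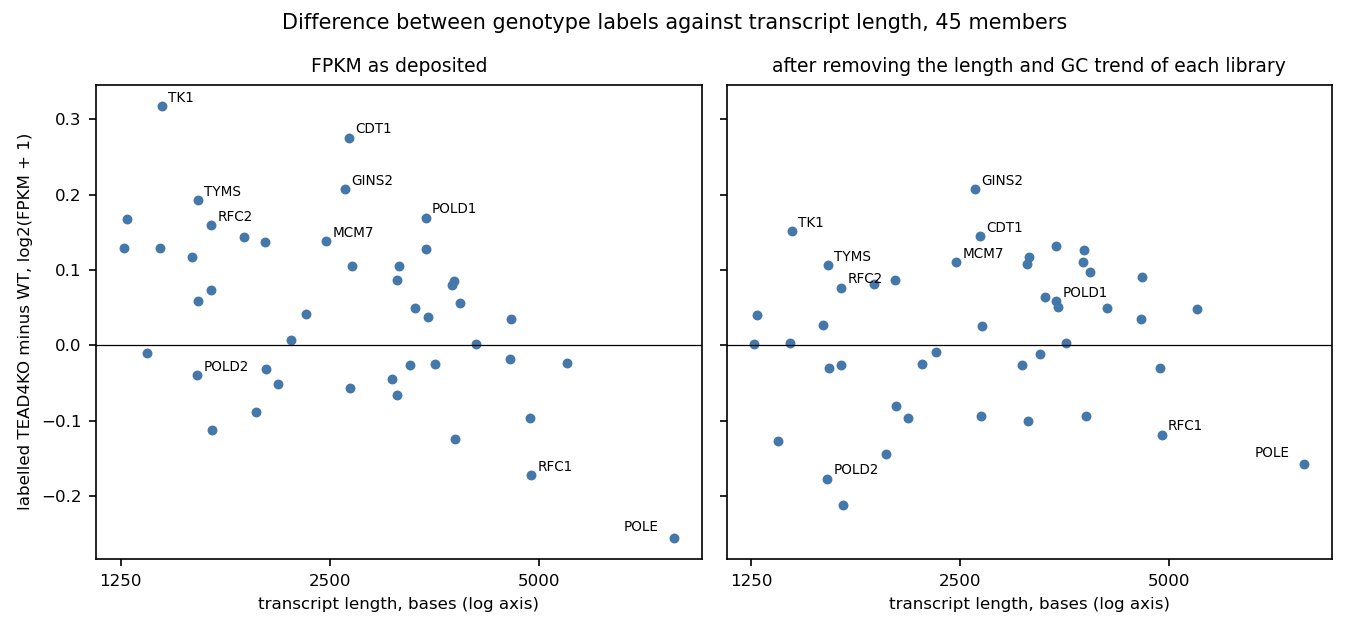
Difference between libraries labelled TEAD4KO and WT over both treatments against transcript length on a log axis, 1 point per member, from the deposited FPKM (left) and after the trend with length and GC content was removed from each library (right). On the left short transcripts such as TK1 and TYMS lie high and the longest, POLE, lies lowest, and on the right the slope is no longer seen.

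Further replication genes that are no members were counted from a list of 54, of which 53 were tested. For GLUP 0 of them were called in WT, in libraries labelled TEAD4KO or over both, with 1, 1 and 3 at an unadjusted p under 0.05, against 0.00891, 0.0445 and 0.258% of all rows called. Between the labels over both treatments 5 of 53 (9.43%) were called, 4 higher and 1 lower, which is below the 20% called among all tested rows. RNASEH2C, a subunit of the nuclease that removes ribonucleotides from DNA, was higher by 0.54 (SE 0.061, adjusted p = 0.000112). It measured 22.2, 20.7 and 19.8 FPKM in untreated WT, 20.3, 18.5 and 22.0 with GLUP, 28.3, 35.9 and 30.4 in untreated TEAD4KO and 29.4, 29.1 and 29.3 in TEAD4KO with GLUP, with no overlap between the genotype labels. DTYMK, which phosphorylates the dTMP made by TK1 and TYMS, was higher by 0.31 (SE 0.040, adjusted p = 0.000233). DUT, which yields dUMP for TYMS, was higher by 0.27 (SE 0.060, adjusted p = 0.00778). After the length and GC correction these were 0.51 (adjusted p = 0.00116), 0.14 (adjusted p = 0.0217) and 0.23 (adjusted p = 0.0233). The others called were RNASEH2A (higher) and ATAD5 (lower), named after their values were seen, and after the correction neither was called (0.09, adjusted p = 0.290, and -0.14, adjusted p = 0.0789). Within untreated cells RNASEH2C and DTYMK were called (3.77% of the list, against 5.42% of all rows), and with GLUP RNASEH2C, DTYMK and DUT (5.66%, against 5.84%). After the correction RNASEH2C stayed called in both (adjusted p = 0.0306 untreated and 0.0212 with GLUP). DTYMK (0.191 untreated and 0.111 with GLUP) and DUT with GLUP (0.0627) did not.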

How the data were processed

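RNA of 12 HGC-27 libraries was compared in 4 groups of 3. The authors deposited FPKM per Ensembl gene, 1 column per sample, without pooling. The submitters' processing notes name HISAT2, Cufflinks, RSEM and hg19, with no versions or roles. Sequencing depth is unknown, so precision comes from the spread between replicates, and FPKM keeps any difference in length or GC bias between libraries. No pair of the 66 pairs of columns was identical.

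Here, log2(FPKM + 1) was kept for 11225 rows averaging 1 FPKM or more and fitted in a model of 4 groups with limma 3.58.1 in R 4.3.3 (lmFit, eBayes with trend, two-sided), with Benjamini-Hochberg adjustment over all tested rows in each of 7 comparisons. A call is an adjusted p under 0.05. Fold changes on this scale understate changes of low genes. The script was tested on simulated data. Gene positions, lengths and GC content came from GENCODE on GRCh37 (96.52% of rows matched), and promoters from RefSeq. The length and GC correction removed a spline trend (5 degrees of freedom each) from every library. Per-library values are given for each called member and for the highest member of each role in untreated WT. Of the further genes only RNASEH2C is given by library, and the others named are given by their differences. Members and lists were chosen with earlier results of these data known. The alternatives were a pseudocount of 0.1, no floor, a floor of 5 FPKM, 2 other scalings, the correction, a fold limit of 2, eBayes without trend, a block on replicate number, a fit of the compared groups alone, and each library left out, and, added after seeing the data, a fit with 2 additive terms and one without 2 TEAD4KO libraries. Replicate numbers come from the titles. Deviations of libraries 14, 15 and 16 correlated between genotypes (0.106, 0.152 and 0.336, all over 0.1) and were taken as paired, whereas those of libraries 1, 2 and 3 did not (-0.0569, 0.203 and -0.0149). WT 15 with TEAD4KO 14 (0.116) and WT 14 with TEAD4KO 15 (0.134) correlated about as much as the same numbers did. The numbers 14 and 15 therefore do not tell pairs apart, and only 16 stood apart.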

Additional observations from a re-analysis of the deposited data

How the results depend on the processing

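Depth limits are unknown for FPKM, 12 members share exon bases with another gene and 11 have named pseudogenes, so their levels are less certain. No call reversed. The counts of 0 members for GLUP in WT, in TEAD4KO, over both genotypes and for the interaction stayed at 0 under every alternative run. Over both treatments (8 members), the genotype count became 3 with the length and GC correction, 0 with a fold over 2, 3 with the replicate block and correction together, and 18 without both TEAD4KO libraries nearest WT. With GLUP (3 members), these were 1, 0, 0 and 15. In untreated cells (1 member), they were 0, 0, 0 and 8, and the count was 2 with a floor of 5 FPKM, 0 with median-ratio scaling, 3 with quantile normalization, 0 with only the groups compared and 2 with the replicate block (CDT1 and TK1). The causes were not tested.

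The replicate block alone gave 3 members with GLUP and 9 over both treatments (POLE added, lower). In untreated cells the numbers do not pair the libraries. Leaving out 1 library gave 0 to 4 members untreated, 1 to 5 with GLUP and 4 to 15 over both. The counts of 15 and 14 over both came without TEAD4KO untreated replicate 1 and TEAD4KO GLUP replicate 16. In untreated cells 4 came without TEAD4KO untreated replicate 1, 2 without TEAD4KO untreated replicate 3 or TEAD4KO GLUP replicate 16, and 0 without any untreated WT library or TEAD4KO untreated replicate 2. With GLUP 5 came without TEAD4KO untreated replicate 1 or TEAD4KO GLUP replicate 16, and 1 without any of the WT GLUP libraries or TEAD4KO GLUP replicate 14 or 15. Over both treatments 4 or 5 came without any of the WT libraries, TEAD4KO untreated replicate 2 or TEAD4KO GLUP replicate 14. TK1, CDT1, TYMS and RFC2 stayed called over both in 12 of 12 such fits, while MCM7 lost its call in 7, RFC1 and POLD1 in 8 and GINS2 in 10. Apart from the fold limit, which no member passed, CDT1 stayed called over both under every alternative (largest adjusted p 0.0406), and the largest adjusted p was 0.0579 for TK1, 0.0602 for TYMS and 0.148 for RFC2. The largest adjusted p by limma was 0.112 for GINS2, 0.125 for RFC1, 0.295 for POLD1 and 0.912 for MCM7. The smallest difference over both treatments among these alternatives was 0.0071 for MCM7 and 0.059 for POLD1.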
